A study of Mus musculus with 23 samples.

Results

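Mitochondria carry their own small circular DNA, and the transcripts described here are those read from it in the heart's left ventricle, the chamber that pumps blood into the aorta. Members were all genes whose symbol begins with mt-, found by gene ID in the table of counts. The mouse annotation lists 37 of them, made up of 13 protein genes, 22 tRNA genes and 2 rRNA genes. Of these, 35 were among the 49315 genes counted, namely all 13 protein genes and all 22 tRNA genes, and the rRNA genes mt-Rnr1 and mt-Rnr2 were not analysed here. After a filter on low counts, 31 members were tested.

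The libraries came from FVB mice in 6 groups. Mice breathed filtered air (the controls), aerosol of e-cigarette vehicle without nicotine, or aerosol of vehicle with nicotine. Sessions of 4 hours were given on 5 days of each week, and exposure went on for 3 months. It began at an age of 3 weeks or at 3 months, so the groups are called 3-week air (4 libraries), 3-week vehicle (3), 3-week nicotine (4), 3-month air (4), 3-month vehicle (4) and 3-month nicotine (4), and libraries keep the numbers of the labels. Exposure lasted 3 months from either start, so the age at the start and the age at the end cannot be told apart. Nothing in the labels ties each library to its own animal, so the p-values speak only of the spread among these 23 samples, and that spread may be technical.

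Mitochondrial DNA is read from both strands as long precursor RNAs that cover nearly the whole circle. By convention most genes are said to belong to the heavy strand, and mt-Nd6 with a few tRNAs to the light strand. tRNAs sit between many of the other genes, and enzymes cut them out to release the mRNAs and rRNAs. The 13 proteins are all subunits of respiratory complexes I, III, IV and V, which make most of the ATP of a beating heart and are otherwise built from nuclear-encoded subunits. Of the 35 members counted, 26 are heavy-strand and 9 are light-strand genes. Whether counting used the strand of the reads is not given in the sources used here, and reads of opposite strands at 1 place, such as those of mt-Nd6 and of the heavy-strand precursor across it, cannot be told apart.

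The sequences of the light-strand members whose counts differed most clearly between groups are shown first, 5′ to 3′ in the direction of the transcript, which is the minus strand of the annotated mouse mitochondrial genome (GRCm38, GENCODE vM21; the build of the counts is not given). mt-Tp, the tRNA for proline, lies at chrM:15356-15422, and its anticodon is in capitals.
mt-Tp: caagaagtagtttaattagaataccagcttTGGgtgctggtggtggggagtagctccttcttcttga
mt-Te, the tRNA for glutamate, lies at chrM:14071-14139, again with the anticodon in capitals.
mt-Te: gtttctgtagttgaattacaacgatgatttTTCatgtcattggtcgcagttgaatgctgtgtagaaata
mt-Nd6 encodes a membrane subunit of complex I and follows mt-Te directly on the same strand, at chrM:13552-14070. Its first 60 bases are shown with the start codon in capitals.
mt-Nd6: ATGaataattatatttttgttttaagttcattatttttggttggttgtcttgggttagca
The last sequence is from the middle of mt-Co2, a core subunit of complex IV (plus strand, chrM:7313-7362), and stands for the genes whose counts are uncertain. All 50 bases are in capitals because the nuclear pseudogene Gm28661 on chromosome 1 holds them letter for letter.
mt-Co2: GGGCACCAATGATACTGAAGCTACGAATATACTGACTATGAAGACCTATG

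Library totals ran from 12297955 to 17821550 counts. The ventricular genes Myl2 (5391 to 12859 CPM, the count scaled to the effective library size), Myh6 and Tnni3 were high in every library, while the atrial light chain gene Myl7 was between 0 and 68.3 CPM. These are bulk samples, in which fewer cells of a type and less RNA per cell cannot be told apart. Calls in 3-week vehicle against 3-week air depended on which libraries were kept. There 2509 of 15500 genes were called, 0 without air libraries 1 and 5, and 44% without vehicle library 4. Without vehicle libraries 1 and 2 a single vehicle library is left. Such fits rest on fewer samples, so lost calls do not show that the libraries left out are unusual. Results that rest on air libraries 1 and 5 or vehicle libraries 1 and 2 are given with and without them.

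Members took between 7.06% and 10.8% of all counts, with a median of 9.09%. In 3-week air the share was 8.71, 8.35, 8.98 and 8.90% in libraries 1, 2, 4 and 5. In 3-week nicotine it was 9.09, 9.84, 10.1 and 10.8% in libraries 2, 3, 5 and 6, so that all 4 lay above the air libraries. The 3-week vehicle libraries were the most spread, at 7.06, 10.04 and 9.72% in libraries 1, 2 and 4, and they held both the lowest share of the series and values above every air library. Among the older mice the share was 8.79% ± 0.416 in air, 8.73% ± 0.698 in vehicle and 9.53% ± 0.588 in nicotine (SD, n = 4 each), and the ranges of these 3 groups overlapped. The share sums genes that move separately, so it is given as a description with no test.

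**Figure D1:**
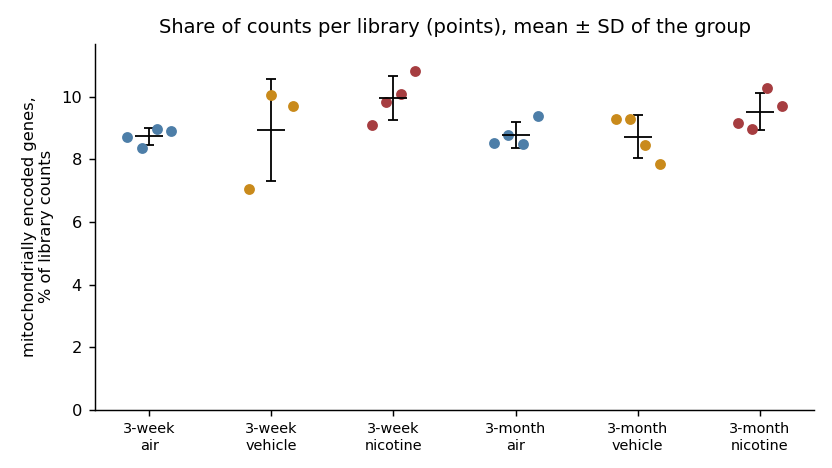
Percent of each library's counts that fell on mitochondrially encoded genes, by group (points are libraries, bars are mean ± SD). The 4 libraries of 3-week nicotine lie between 9.09 and 10.8%, above the 4 of 3-week air, and 3-week vehicle library 1 is lowest at 7.06%.

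Nearly all of this signal came from 7 protein genes, mt-Co1, mt-Cytb, mt-Nd1, mt-Nd2, mt-Nd4, mt-Nd5 and mt-Nd6, which together held 99.2 to 99.5% of member counts and each had at least 22975 counts in every library. Per kilobase of gene, mt-Co1, the catalytic subunit of complex IV, was highest, with a median of 25279 CPM per kb over the 23 libraries. mt-Cytb, the only mitochondrially encoded subunit of complex III, followed at 15637 CPM per kb. The complex I subunits mt-Nd1, mt-Nd2, mt-Nd4, mt-Nd6 and mt-Nd5 came next, at 12045, 7088, 4952, 4300 and 3017 CPM per kb. The range over libraries of each gene overlapped that of the next one in this order, except between mt-Nd1 (9588 to 13695 CPM per kb) and mt-Nd2 (4106 to 9365 CPM per kb). The order also differed between groups. In 3-week vehicle mt-Nd6 had a mean of 7378 CPM per kb, above mt-Nd2 (6221) and mt-Nd4 (6204), and in 3-week nicotine its mean of 6606 CPM per kb was above that of mt-Nd4 (5673). mt-Nd6, the light-strand protein gene, varied most between libraries, with a coefficient of variation of 34.1%, against 9.14% for mt-Nd1 and 9.37% for mt-Cytb.

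3-week vehicle library 1 differed from every other library in this make-up. mt-Co1 supplied 24.7% of its member counts against 35.6 to 45.8% in the other 22 libraries, and mt-Nd6 supplied 7.23% against 1.62 to 4.61%. mt-Nd4 was also highest there, at 14.3% of member counts.

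**Figure D2:**
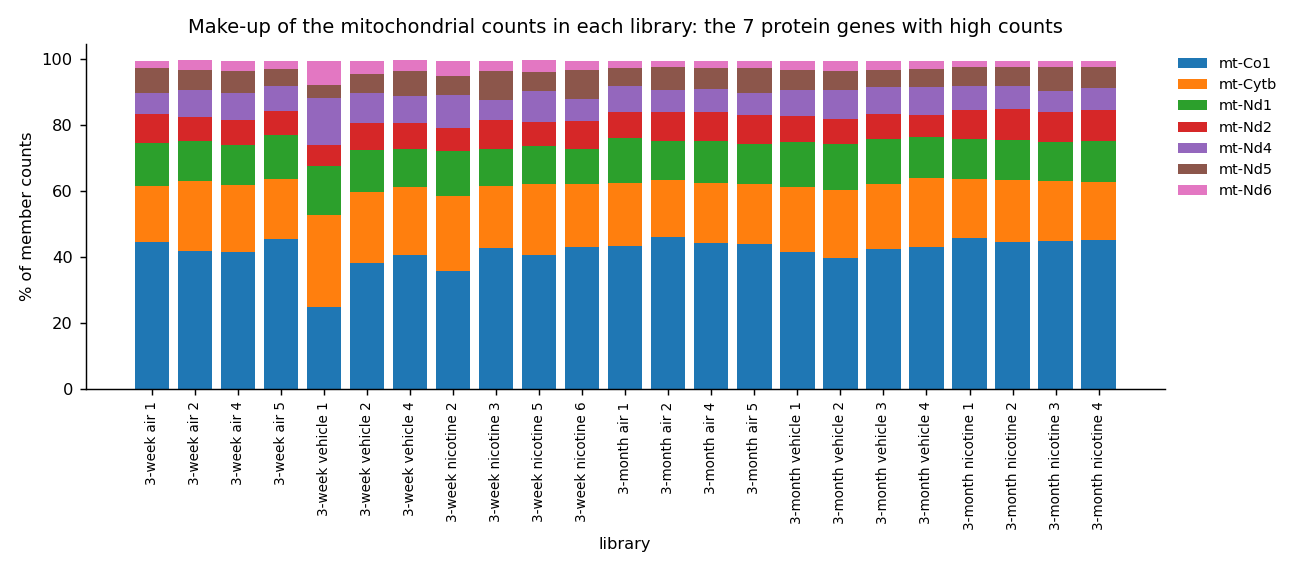
Percent of member counts that each of the 7 protein genes with high counts supplied, 1 bar per library. Bars stop just short of 100 because tRNAs and the other 6 protein genes hold the rest. In 3-week vehicle library 1 mt-Co1 supplies 24.7% and mt-Nd6 7.23%.

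The other 6 protein genes, mt-Co2 and mt-Co3 of complex IV, mt-Atp6 and mt-Atp8 of complex V (ATP synthase), and mt-Nd3 and mt-Nd4l of complex I, had at most 126 counts in any library. Together they held 0.0178 to 0.0411% of member counts, although they lie on the same heavy-strand precursor as mt-Co1 and mt-Nd4. For 5 of these genes, all but mt-Atp8, pseudogenes on chromosome 1 hold a copy. Gm28661, Gm10925, Gm28437, Gm28438 and Gm10222 matched mt-Co2, mt-Atp6, mt-Co3, mt-Nd3 and mt-Nd4l without a mismatch over 681, 678, 783, 342 and 294 bases. Of all windows of 50 bases, 100% of mt-Co2, 99.9% of mt-Co3, 99.5% of mt-Atp6, 98.8% of mt-Nd4l and 97.99% of mt-Nd3 also occurred in a nuclear transcript, as the mt-Co2 sequence above shows for 1 window. The values of these genes are therefore uncertain, since how reads with more than 1 match were counted is not given in the sources used here. Each of these 5 pseudogenes had a higher median count over libraries than its mitochondrial match, at 162 against 89 for mt-Co2, 153 against 76 for mt-Atp6, 347 against 76 for mt-Co3, 1233 against 31 for mt-Nd3 and 153 against 17 for mt-Nd4l. Gm28439, a copy of part of mt-Nd4, had a median of 60.

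Partial copies also touch genes with high counts. Windows shared with a nuclear transcript made up 62.2% of mt-Nd4 and 51.1% of mt-Co1, and 8.19% of mt-Nd2 and 7.61% of mt-Nd5, so these levels are uncertain too. mt-Nd1, mt-Nd6, mt-Cytb and mt-Atp8 shared no such window with an annotated nuclear transcript. mt-Atp8 was nevertheless at 4 to 24 counts, and it lies between mt-Co2 and mt-Atp6, overlapping the latter by 43 bases.

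**Figure D3:**
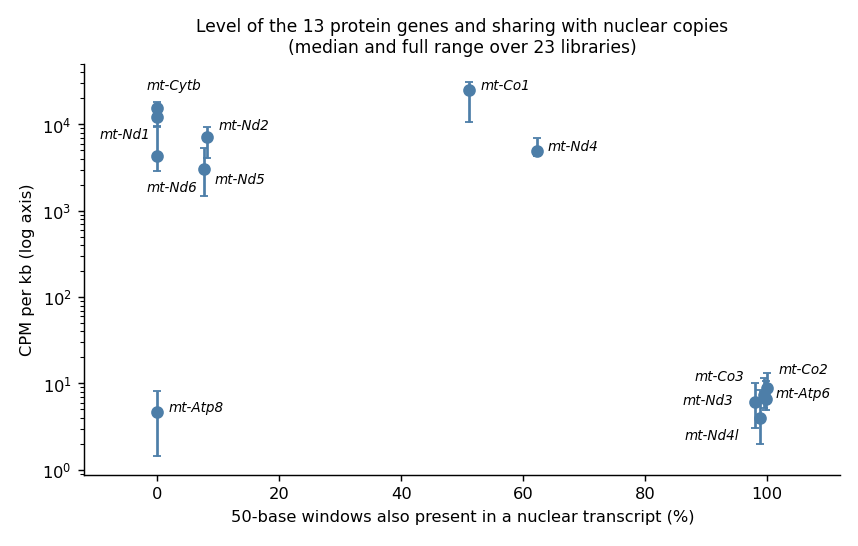
Level of the 13 protein genes in CPM per kb (log axis, points are medians and bars the full range over 23 libraries) against the percent of 50-base windows also present in a nuclear transcript. The 5 genes at 97.99% or more have medians at or below 8.83 CPM per kb. mt-Atp8 is the only low gene with no window found in an annotated nuclear transcript. Nuclear sequence outside annotated transcripts was not searched.

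Counts at tRNA genes were lower, at 0.469 to 0.742% of member counts, and mature tRNAs are short and heavily modified, so ordinary RNA sequencing catches few of them. How reads that span neighbouring genes were counted is not given in the sources used here. mt-Tl1, the tRNA for leucine between the second rRNA and mt-Nd1, led with a median of 2543 CPM per kb. mt-Tp and mt-Te followed, at 1057 and 950 CPM per kb. At the other end, mt-Td and mt-Tk had 0 counts in every library, which allows a level of up to 0.168 to 0.244 CPM depending on the library (3 counts, counting error only). mt-Tg had 0 or 1 count and mt-Ts1 up to 4. These 4 tRNA genes were not tested, and all of them lie between mt-Co1 and mt-Nd3, genes with copies on chromosome 1. mt-Tr, the next tRNA after mt-Nd3, had 2 to 16 counts.

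Vehicle aerosol from 3 weeks of age was accompanied by more counts of the light-strand run of mt-Tp, mt-Te and mt-Nd6 and of the heavy-strand gene mt-Nd4. These 4 of the 31 members tested rose against 3-week air and 0 fell, by edgeR's quasi-likelihood test with Benjamini-Hochberg adjustment over all genes. In the same comparison 9.27% of all genes tested were called higher and 16.2% were called in either direction. The share of members called lay between these values, near that of all genes, so it is not read as particular to the members. The members' median difference was 0.10 on the log2 scale, against 0.02 over all genes, and 16 of 31 members were above 0. An unadjusted p under 0.05 was found for 9 members, where 37.3% of genes had one.

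mt-Nd6 stood at 1919, 2271, 2541 and 2232 CPM in 3-week air libraries 1, 2, 4 and 5. In 3-week vehicle libraries 1, 2 and 4 it stood at 4873, 3739 and 2876 CPM. All 3 vehicle libraries were above all 4 air libraries, with library 1 far above and library 4 just above. The change was 0.77 ± 0.15 log2 (SE, edgeR adjusted p = 0.0141).

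mt-Tp was 58.2, 57.2, 59.97 and 62.6 CPM in the air libraries and 82.5, 81.7 and 74.7 CPM in the vehicle libraries. The groups were well apart, and each was tight (0.42 ± 0.10 log2, edgeR adjusted p = 0.0213). mt-Te was 55.6, 59.3, 67.2 and 48.4 CPM in air against 100, 83.5 and 67.8 CPM in vehicle. Vehicle library 4 lay level with air library 4 but did not fall below it (0.54 ± 0.15 log2, edgeR adjusted p = 0.0279). mt-Nd4, a core membrane subunit of complex I, was 5940, 6333, 6703 and 6940 CPM in air against 9656, 8581 and 7412 CPM in vehicle (0.40 ± 0.11 log2, edgeR adjusted p = 0.0311).

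mt-Cytb lies between mt-Te and mt-Tp but is read from the opposite strand. It read 15857, 16480, 17032 and 16842 CPM in air and 18873, 20240 and 19096 CPM in vehicle. The groups did not overlap, and the difference of 0.23 ± 0.08 log2 did not pass the threshold (edgeR adjusted p = 0.0579). In all, 5 of 31 members had every vehicle library above every air library (mt-Nd4, mt-Nd6, mt-Te, mt-Cytb and mt-Tp) and 0 had the reverse, where 5.06% and 4.19% of all genes did. The other 5 light-strand tRNAs tested did not follow mt-Tp. Their differences ran from -0.59 to 0.34 log2 with 4 of 5 below 0 and 0 called. The split of the light strand into these 2 runs was chosen after the values were seen and has no test.

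mt-Co1 went the other way in the point estimate, at -0.32 ± 0.19 log2 (edgeR adjusted p = 0.223), and this rests on vehicle library 1. It was at 16666 CPM in that library and at 36110 and 37596 CPM in vehicle libraries 2 and 4, within the air range of 32152 to 41792 CPM.

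These calls depended on single libraries, as did most calls over all genes in this comparison. The estimates of the 4 called members kept their sign in each of the 7 fits without 1 library. mt-Nd6 ran from 0.55 to 0.91, mt-Te from 0.38 to 0.65, mt-Nd4 from 0.29 to 0.46 and mt-Tp from 0.38 to 0.44 log2. Without vehicle library 1 or air library 1, 0 members were called, and without vehicle library 2 or air library 5 mt-Nd6 alone was. Without vehicle library 4 there were 12 members called, 9 higher and 3 lower, where 44% of all genes were called (3300 higher and 3669 lower). Fitted on these 2 groups alone, 0 members and 0% of genes were called, and without air libraries 1 and 5 together mt-Nd6 was 0.65 ± 0.19 log2 (edgeR adjusted p = 0.258). Without vehicle libraries 1 and 2, which leaves a single vehicle library, mt-Nd6 was 0.38 ± 0.18, mt-Tp 0.35 ± 0.14, mt-Te 0.25 ± 0.20 and mt-Nd4 0.21 ± 0.15 log2 (edgeR adjusted p = 1 for each). DESeq2 called 6 members, where it called 22.1% of genes. With an offset for the relation of counts to gene length, mt-Nd6 was 0.31 log2 (edgeR adjusted p = 0.066) and mt-Nd4 0.18 log2 (edgeR adjusted p = 0.138), the members' median was -0.32 log2, and mt-Tp, mt-Te and mt-Cytb turned to -0.14, -0.07 and -0.02 log2.

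Nicotine aerosol from 3 weeks of age was also accompanied by more mt-Tp and mt-Nd6. These 2 of 31 members rose against 3-week air and 0 fell, where 0.0903% of all genes tested were called higher and 0.813% in either direction. The members' median was 0.20 log2 against 0.02 over all genes, and 26 of 31 were above 0. With the length offset the members' median turned to -0.05 log2, with 15 of 31 above 0. An unadjusted p under 0.05 was found for 6 members, where 12.8% of genes had one. This comparison shares its air libraries with the vehicle comparison, so the 2 sets of values are not independent.

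mt-Tp read 81.5, 80.4, 85.6 and 82.0 CPM in 3-week nicotine libraries 2, 3, 5 and 6, against 57.2 to 62.6 CPM in air. The gap between the groups was wider than the range within either (0.47 ± 0.09 log2, edgeR adjusted p = 0.0262). mt-Nd6 read 4022, 3339, 3293 and 3060 CPM in the nicotine libraries against 1919 to 2541 CPM in air (0.61 ± 0.14 log2, edgeR adjusted p = 0.0478). Its mean was 3429 ± 414 CPM against 2241 ± 255 CPM (SD, n = 4 each).

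mt-Cytb was 20014, 19261, 20484 and 20889 CPM in the nicotine libraries, above every air library, with a difference of 0.28 ± 0.08 log2 that missed the threshold (edgeR adjusted p = 0.0762). mt-Te was 96.6, 75.2, 68.5 and 74.5 CPM, also above every air library, and missed it as well (0.45 ± 0.14 log2, edgeR adjusted p = 0.134). mt-Nd4 was 8681, 6345, 8853 and 7391 CPM, and library 3 fell inside the air range (0.27 ± 0.11 log2, edgeR adjusted p = 0.267). Besides mt-Nd6, mt-Te, mt-Cytb and mt-Tp, the low-count gene mt-Nd3 also had all nicotine libraries above all air libraries. That makes 5 of 31 members, with 0 the other way, where 2.57% of all genes lay wholly higher and 2.63% wholly lower. In the authors' deposited table of this comparison, 31 members have values and 3 are under an adjusted p of 0.05, namely mt-Tp (0.46 log2, adjusted p = 1.52e-05), mt-Nd6 (0.60 log2, adjusted p = 0.00388) and mt-Cytb (0.27 log2, adjusted p = 0.0129).

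Both calls were lost when air library 1, air library 5 or any single nicotine library was left out, and were kept without air library 2 or 4. The log2 change of mt-Tp ran from 0.45 to 0.49, and that of mt-Nd6 from 0.53 to 0.67, over these 8 fits. On these groups alone 0 members were called, where 0.00706% of genes were, and DESeq2 called 3 members, where it called 3.08% of genes. With the length offset mt-Nd6 was 0.42 ± 0.11 log2 (edgeR adjusted p = 0.0662) and mt-Tp 0.15 ± 0.15 log2 (edgeR adjusted p = 0.723), while mt-Te was 0.12 and mt-Cytb 0.17 log2.

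**Figure D4:**
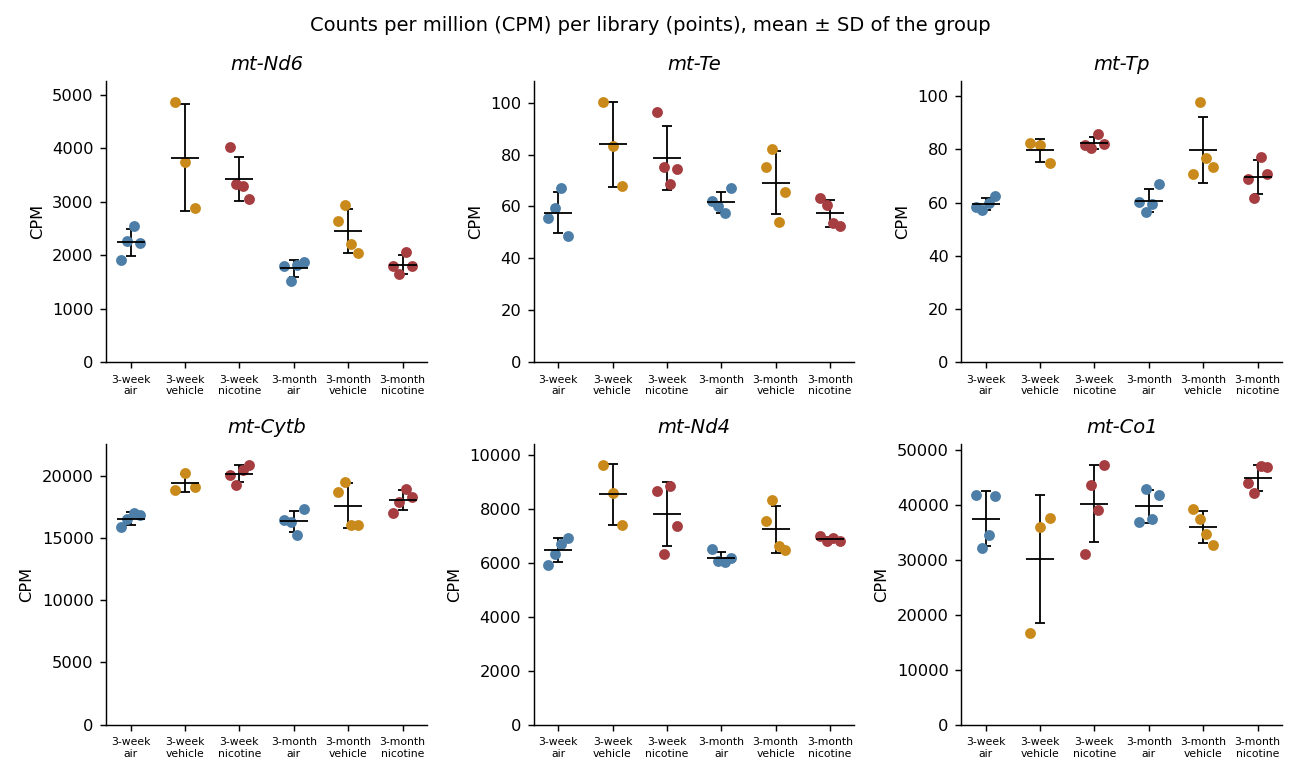
CPM of 6 members in each library (points), with the mean ± SD of each group. In mt-Tp the 4 libraries of 3-week nicotine (80.4 to 85.6 CPM) and the 3 of 3-week vehicle (74.7 to 82.5 CPM) lie above the 4 of 3-week air (57.2 to 62.6 CPM), and mt-Co1 shows the single low library of 3-week vehicle at 16666 CPM.

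Nicotine and vehicle from 3 weeks were not told apart by any member. Of 31 members 0 were called, where 0% of all genes were, and 4 members had an unadjusted p under 0.05, as did 19.3% of all genes. DESeq2 also called 0 members, where it called 1.64% of genes. Separate ranges were found for 0 members, where 2.52% of genes lay wholly higher and 2.36% wholly lower. The smallest p belonged to mt-Atp8, at 0.99 ± 0.41 log2 on 4 to 24 counts per library (edgeR adjusted p = 0.21). The errors of the members that rose against air still allow differences, and not only small ones in mt-Nd6 and mt-Te. mt-Nd6 was at -0.16 ± 0.15, mt-Te at -0.09 ± 0.15, mt-Nd4 at -0.13 ± 0.11 and mt-Tp at 0.05 ± 0.10 log2. Without vehicle library 4, 6 of 31 members were called, where 30.3% of all genes were, among them mt-Co1 at 0.63 log2 (edgeR adjusted p = 0.0203) and mt-Nd5, a complex I subunit, at 0.89 log2 (edgeR adjusted p = 0.0241).

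Several measures of the libraries differed between the 3-week groups beside these results. Noncoding genes took 1.11 to 1.49% of counts in air, 1.41 to 2.55% in vehicle and 1.35 to 3.11% in nicotine. The 6 blood and erythroid markers (such as the globins Hba-a1 and Hbb-bs) were all in the table, none at 0 throughout a group, and summed to 505 to 931 CPM in air, 1087 to 1406 CPM in nicotine and 467 to 2363 CPM in vehicle. The 6 adipocyte markers summed to 405 to 761 CPM in air, 630 to 1357 CPM in vehicle and 638 to 1019 CPM in nicotine (Ucp1 at 0 throughout both aerosol groups), and Fabp4 was called higher in vehicle (0.73 log2, edgeR adjusted p = 0.0362). The 6 macrophage markers summed to 149 to 201 CPM in air, 148 to 169 CPM in vehicle and 113 to 158 CPM in nicotine, and Adgre1 was called lower in vehicle (-0.80 log2, edgeR adjusted p = 0.0303). Of the 9 ventricular cardiomyocyte markers, 3 were called higher (Myl2, Tnni3 and Myl3) and 3 lower (Actc1, Actn2 and Myh6) in vehicle, and Actc1 lower in nicotine (-0.43 log2, edgeR adjusted p = 0.04996), with sums of 83310 to 102727 CPM in air, 81667 to 91937 CPM in vehicle and 85625 to 93614 CPM in nicotine. The rank correlation across genes between a library's deviation from the mean and gene length was -0.0561 to 0.275 in air. It was -0.211, -0.275 and 0.202 in vehicle libraries 1, 2 and 4, and -0.346, 0.122, -0.296 and 0.233 in nicotine libraries 2, 3, 5 and 6. The 4 libraries below -0.2, namely vehicle 1 and 2 and nicotine 2 and 5, were also the 4 with the most mt-Nd4 of the 3-week libraries (8581 to 9656 CPM). mt-Nd6 was highest in 3 of these 4 (vehicle 1 and 2 and nicotine 2, 3739 to 4873 CPM). Vehicle library 4, with a positive value, had the least mt-Tp of its group (74.7 CPM, where the others had 82.5 and 81.7 CPM). In nicotine, mt-Tp was 81.5 and 85.6 CPM where the value was negative, and 80.4 and 82.0 CPM where it was positive. The part of these measures in the results was not tested.

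Vehicle aerosol from 3 months of age gave no member past the threshold, though mt-Tp and mt-Nd6 again had the largest shifts upward relative to their error. Of 31 members 0 were called, where 0% of all genes were, 4 had an unadjusted p under 0.05, where 14.2% of genes did, and the members' median was -0.10 log2. mt-Tp was 60.3, 56.5, 59.3 and 66.9 CPM in 3-month air libraries 1, 2, 4 and 5. It was 70.8, 97.9, 76.7 and 73.2 CPM in 3-month vehicle libraries 1 to 4. The vehicle libraries all lay above air, with library 2 highest (0.39 ± 0.09 log2, edgeR adjusted p = 0.168). DESeq2 called this gene and no other member (0.39 log2, adjusted p = 0.0153), where it called 0.555% of genes.

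mt-Nd6 was 1798, 1519, 1815 and 1872 CPM in 3-month air against 2635, 2941, 2205 and 2039 CPM in vehicle. These ranges too were separate (0.49 ± 0.14 log2, edgeR adjusted p = 0.253). mt-Tm, the tRNA for methionine upstream of mt-Nd2, was the only member with separate and lower values, at 22.9, 48.0, 22.9 and 36.1 CPM in air against 16.1, 15.0, 13.5 and 10.03 CPM in vehicle (-1.25 ± 0.37 log2, edgeR adjusted p = 0.253). So 2 members lay wholly higher and 1 wholly lower, where 8.52% and 11.6% of all genes did. When these 2 groups were fitted alone, 5 members were called, where 18.4% of genes were. mt-Nd6 (adjusted p = 0.0104), mt-Tp (0.0163), mt-Ti (0.0241) and mt-Nd4 (0.0445) were higher and mt-Tm (0.0152) was lower in that edgeR fit. With the length offset mt-Tp was 0.13 ± 0.15 log2 (edgeR adjusted p = 0.685) and mt-Nd6 0.24 ± 0.11 log2 (edgeR adjusted p = 0.388), and the members' median was -0.29 log2.

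Nicotine from 3 months of age gave no member past the threshold against air. Of 31 members 0 were called, where 0% of all genes were, 1 had an unadjusted p under 0.05, where 2.63% of genes did, and DESeq2 called 0, where it called 0.0129% of genes. That member was mt-Tp, at 68.9, 61.6, 77.1 and 70.7 CPM in libraries 1 to 4, overlapping air (0.20 ± 0.09 log2, edgeR adjusted p = 1). mt-Nd6 was 1791, 1652, 2064 and 1788 CPM, also overlapping air (0.06 ± 0.14 log2). mt-Nd1 and mt-Nd4 lay wholly above air, 2 of 31 members where 1.99% of genes did, by 0.12 and 0.15 log2, and 0 lay wholly below, where 1.71% of genes did. In the authors' deposited table, 0 of the 30 members with values were under an adjusted p of 0.05 here. Unadjusted, mt-Nd4, mt-Nd2, mt-Co1, mt-Cytb and mt-Tp were under 0.05 there. All of these were higher in nicotine, by 0.14, 0.21, 0.17, 0.13 and 0.19 log2.

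Against vehicle of the same starting age, 3-month nicotine libraries had more mt-Tm, mt-Nd2 and mt-Co1 and less mt-Nd6 in the point estimates, with 0 of 31 members called where 0% of all genes were. An unadjusted p under 0.05 was found for 4 members, where 12.2% of genes had one, and DESeq2 called 0, where it called 0.0839% of genes. mt-Tm read 32.0, 32.0, 24.6 and 32.0 CPM in nicotine, above every vehicle library (1.14 ± 0.37 log2, edgeR adjusted p = 0.397). mt-Nd2, a complex I subunit, read 8471, 8756, 9374 and 9721 CPM against 7407, 7188, 6359 and 5186 CPM in vehicle (0.47 ± 0.17 log2, edgeR adjusted p = 0.397). mt-Co1 read 42173 to 47065 CPM against 32825 to 39373 CPM (0.32 ± 0.17 log2, edgeR adjusted p = 0.424). These 3 members lay wholly higher, where 12.2% of all genes did, and 0 lay wholly lower, where 6.66% did. mt-Nd6 was at -0.43 ± 0.14 log2 (edgeR adjusted p = 0.397), with ranges that overlapped, and at -0.19 ± 0.11 log2 with the length offset (edgeR adjusted p = 0.522). Fitted on these 2 groups alone, 6 members were called, where 15.8% of genes were. These were mt-Tm, mt-Nd2, mt-Co1, mt-Tq and mt-Tn higher and mt-Nd6 lower, with edgeR adjusted p from 0.000622 to 0.0426.

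Among the older groups the length relation was wholly lower in vehicle, while air and nicotine overlapped. It was 0.102 to 0.320 in 3-month air, 0.0122 to 0.343 in nicotine and -0.239 to -0.106 in vehicle. Adipocyte markers (6 in the table, Ucp1 at 0 in every vehicle library) summed to 667 to 912 CPM in 3-month vehicle, above the 440 to 636 CPM of air and the 510 to 554 CPM of nicotine. Blood and erythroid markers summed to 660 to 893 CPM in vehicle, 304 to 722 CPM in air and 408 to 553 CPM in nicotine. Their part in these results was not tested.

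**Figure D5:**
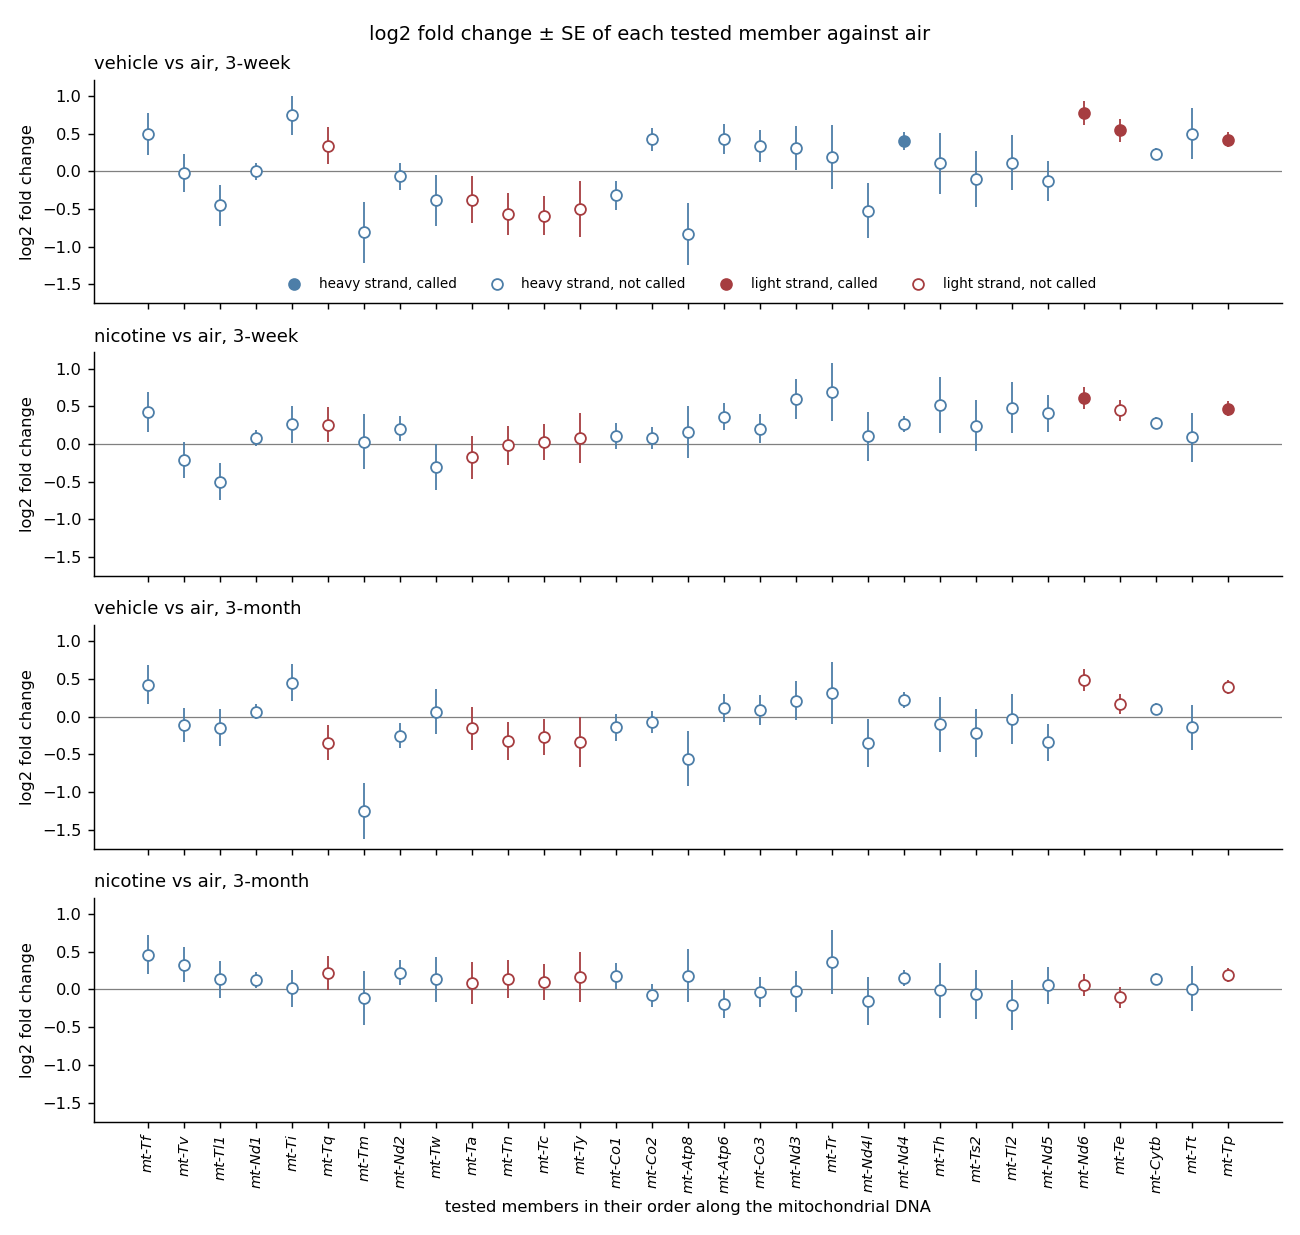
log2 fold change ± SE of the 31 tested members against air of the same starting age, in their order along the mitochondrial DNA (heavy strand blue, light strand red, filled where the adjusted p is under 0.05). At the right end mt-Nd6, mt-Te and mt-Tp are filled in 3-week vehicle, mt-Nd6 and mt-Tp in 3-week nicotine, and none in the 3-month panels.

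Whether the effects differed by starting age was tested directly, and 0 members were called. For nicotine (3 weeks minus 3 months) the smallest p was that of mt-Te, at 0.55 ± 0.20 log2 (edgeR adjusted p = 0.266), with mt-Nd6 at 0.55 ± 0.20 log2 (edgeR adjusted p = 0.282). With the length offset these were 0.24 ± 0.21 and 0.36 ± 0.16 log2. In that test 0.135% of all genes were called, 3 members had an unadjusted p under 0.05, where 10.2% of genes did, and DESeq2 called 0 members and 1.37% of genes. For vehicle the smallest p was that of mt-Co2, at 0.49 log2 (edgeR adjusted p = 0.39), a gene of few counts. There 0% of all genes were called, 1 member had an unadjusted p under 0.05, where 12% of genes did, and DESeq2 called 0 members and 0.523% of genes. mt-Nd6 differed by 0.29 ± 0.21 log2 and mt-Tp by 0.03 ± 0.14 log2 between the vehicle effects. A higher mt-Nd6 or mt-Tp at only 1 starting age is therefore not shown.

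Air controls of the 2 starting ages were compared last, and 0 members were called, where 0.00645% of genes were. Unadjusted, 3 members had a p under 0.05, where 9.08% of genes did, and DESeq2 called 0 members and 0.271% of genes. mt-Tt, the tRNA for threonine, had the smallest p, at 5.35, 4.07, 3.54 and 4.73 CPM in 3-month air libraries 1, 2, 4 and 5 against 3.82, 1.84, 1.87 and 2.21 CPM in 3-week air (0.86 log2, edgeR adjusted p = 0.368). mt-Nd6 was lower in the older air controls by -0.36 ± 0.14 log2 (edgeR adjusted p = 0.442). Its ranges of 1519 to 1872 CPM and 1919 to 2541 CPM did not overlap, but separate ranges over all genes were not counted here.

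Nuclear genes that make or handle these RNAs were called no more often than genes in general in 3-week vehicle against 3-week air, where 16.2% of all genes were called in either direction. Among 18 genes of mitochondrial DNA transcription and replication, 1 rose and 1 fell, a share below that background. Primpol, a primase of mitochondrial and nuclear DNA, rose by 0.81 ± 0.23 log2 (edgeR adjusted p = 0.0312), and Tfam, which packages mitochondrial DNA and starts its transcription, fell by 0.43 ± 0.13 log2 (edgeR adjusted p = 0.0383). The median of the list was -0.06 log2. Polrmt, the mitochondrial RNA polymerase, was among the 16 not called.

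Of 25 tested genes of mitochondrial RNA processing and stability, 1 rose and 2 fell, again a share below the background, with a median of -0.15 log2. Trit1, which modifies tRNAs, rose by 0.53 ± 0.14 log2 (edgeR adjusted p = 0.0263). Nsun4, a methyltransferase of mitochondrial rRNA, fell by 0.45 ± 0.13 log2 (edgeR adjusted p = 0.0312) and Supv3l1, the helicase of the mitochondrial RNA degradosome, fell by 0.31 ± 0.11 log2 (edgeR adjusted p = 0.0483). Of 32 nuclear-encoded partners in complexes I, III, IV and V, 6 rose and 2 fell, with a median of 0.26 log2. Unlike in the other lists, this share called was above the 16.2% of all genes, and whether that is particular to the list was not tested. Cox8b of complex IV rose by 0.63 log2 and Uqcrq of complex III by 0.67 log2, while Uqcrc2 of complex III and Atp5a1 of complex V were at -0.52 and -0.33 log2. Leaving out single libraries moved these counts to 0 to 10, 0 to 14 and 0 to 21 called, with 0 in each list without air library 1, air library 5, vehicle library 1 or vehicle library 2, and the highest counts without vehicle library 4, where 44% of all genes were called. In the other 8 comparisons, the difference of the vehicle effects between starting ages among them, 0 genes of any list were called, and 0 to 5, 0 to 6 and 0 to 7 genes of the lists had an unadjusted p under 0.05. DESeq2 called 2 partner genes in 3-week nicotine against vehicle and 0 genes of these lists in the other 7. Without vehicle library 4 the nicotine against vehicle comparison at 3 weeks called 4 of 18, 12 of 25 and 20 of 32 genes of the lists, where 30.3% of all genes were called.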

How the data were processed

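RNA of mouse left ventricle was sequenced in 23 libraries of 6 groups. Raw counts per gene, in whole numbers, were deposited by the authors. The tools that the submitters' processing notes name are STAR 2.5.2b, Subread 1.5.2 with featureCounts, Trimmomatic 0.36 and DESeq2. The genome build, the annotation and the use of strand in counting are not given here. The authors' deposited tables (nicotine with air at both starting ages) give p-values and log2 fold changes, and their signal columns, deposited counts divided by a size factor, served only to check columns. A deposited table of gene ontology terms was not used.

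Symbols and positions came from GENCODE vM21 by gene ID. Counts were fitted with edgeR 4.0.16 in R 4.3.3 (filterByExpr, minimum count 10, 15500 genes, TMM scaling, robust quasi-likelihood fit of the 6 groups, 17 residual degrees of freedom), with Benjamini-Hochberg adjustment over all genes and a threshold of 0.05. CPM use TMM scaling. The SE of each edgeR log2 change was worked back from that change and the F statistic of its quasi-likelihood test. DESeq2 1.42.0 and other scalings, filters and sample sets were alternatives. Sharing with nuclear transcripts was counted in 50-base windows on either strand. The fit was tested on simulated counts. Every member past the threshold was named, or else the one with the smallest p, and up to 4 genes of each nuclear list. Other members, and the pseudogenes, were named after their values were seen. The members and lists were chosen with earlier results of these data known.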

Additional observations from a re-analysis of the deposited data

Results flagged for a closer look

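In 3-month nicotine the tRNA gene mt-Tm was at 24.6 CPM in library 3, while the other 3 libraries lay within 31.96 to 31.99 CPM, so that this library stood far from the others relative to the range of the group. It was the only such value among 60 sets of 4 libraries examined (11 named members and the share of counts, in 5 groups each). Chance alone flags about 1 of 20 such sets, so 1 among 60 is no more than chance gives. No test of a difference between starting ages called a member.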

How the results depend on the processing

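Counts of members called moved as follows. In 3-week nicotine against air the main count was 2. It was 2 with RLE size factors and with scaling from genes that are not members, 1 on library totals with no scaling factor, 1 (lower) when scaled to the summed counts of the members, 0 without the filter on low counts, 0 with the length offset, 0 on the compared groups alone, 0 without air libraries 1 and 5 together, 3 by DESeq2, and 0 to 2 with single libraries left out. In 3-week vehicle against air the main count was 4. It was 4 with RLE and with non-member scaling, 6 on library totals, 2 without the filter, 1 (lower) with the length offset, 2 when scaled to the members, 0 on the compared groups alone, 0 without air libraries 1 and 5 together, 0 without vehicle libraries 1 and 2 together (the lone vehicle library is then assumed to vary like the other groups), 6 by DESeq2, and 0 to 12 with single libraries left out. The main count was 0 elsewhere, and it became 1 by DESeq2 and 5 on the compared groups alone in 3-month vehicle against air, 6 on the compared groups alone in 3-month nicotine against vehicle, 0 to 6 with single libraries left out in 3-week nicotine against vehicle, 0 to 1 in the difference of vehicle effects, and 1 (mt-Tl1) in 3-month against 3-week air without air libraries 1 and 5. The cause of these shifts was not tested. Fits on fewer groups rest on fewer samples, and they do not share the estimate of the spread over all 6 groups. From the main fit to the compared groups alone, the SE of mt-Nd6 against air rose from 0.153 to 0.197 log2 in 3-week vehicle. It fell from 0.143 to 0.130 in 3-week nicotine, from 0.143 to 0.107 in 3-month vehicle and from 0.143 to 0.0851 log2 in 3-month nicotine.

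Of 35 pairs of member and comparison with an unadjusted p under 0.05, 8 reversed in some fit. With the length offset in 3-week vehicle against air, mt-Te was at -0.0705, mt-Cytb at -0.0161 and mt-Tp at -0.14 log2. Without vehicle libraries 1 and 2, mt-Ti was at -0.35, mt-Co2 at -0.12 and mt-Atp6 at -0.00844 log2 in that comparison, and mt-Co2 at 0.19 log2 in nicotine against vehicle and -0.0517 log2 in the difference of vehicle effects. With the length offset the members' median was -0.05 log2 in 3-week nicotine and -0.32 log2 in 3-week vehicle against air, so the direction of the members as a group depends on it. The offset was a smoothed curve over annotated gene length, and the tRNA genes tested, of 59 to 75 bases, lie near its short end. How well the curve fits such short genes was not tested. The alternatives scaled to the members and without pairs of libraries were chosen after seeing the data.

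Replicate numbers were checked for pairing, and deviations of the 16 same-numbered pairs of libraries within a starting age correlated at -0.37 to 0.283. No pairing by number was seen, but deviations from the means of such small groups cannot exclude it. With the replicate number as a block 0 members were called in each of the 9 comparisons, on 8 residual degrees of freedom (12 for the air controls).

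The share of counts on members kept within 1 SD of its group mean when the total was taken over protein-coding genes, and ran from 8.39 to 9.88% in 3-week vehicle with single libraries left out, the widest range of the 6 groups. Leaving the rRNA genes out of the share was not run, because they were not analysed here. Depth limits mainly the 6 protein genes and the tRNAs with few counts.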
